A study of Mus musculus with 11 samples.

Results

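Myc and 9 genes of its dimerisation network (Max, Mxd1, Mxd4, Mxi1, Mnt, Mga, Mlx, Mlxip and Mlxipl) were followed through mouse soleus, a calf muscle used for standing with many slow fibres, and quadriceps, a thigh muscle of mostly fast fibres. The genes were taken by symbol, not by value, and all 10 were present among 13121 genes listed for soleus and 12366 for quadriceps. Mice aged 2.5 months carried a tetracycline-responsive Myc system, were given doxycycline overnight and were sampled 12 hours after it was withdrawn, and age-matched mice were the controls. The groups were Myc-labelled soleus (4 libraries), control soleus (3), Myc-labelled quadriceps (2) and control quadriceps (2). The labels do not give the promoter that drives the system, the species of the Myc sequence it carries, the genotype of the controls or whether they received doxycycline. No label says which libraries come from separate animals, so p-values measure only the spread between these samples.

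Myc is a basic helix-loop-helix leucine zipper protein that binds DNA as a dimer with Max, best at the E-box CACGTG, and raises genes for ribosome assembly and growth. Max also pairs with the repressors Mxd1, Mxd4, Mxi1, Mnt and Mga, which compete with Myc for Max and for the same sites. Mlx is a Max-like protein that pairs with Mlxip (MondoA) and Mlxipl (ChREBP), sensors of glucose-derived metabolites, of which MondoA is the form best known from skeletal muscle.

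The E-box is shown first because the network both reads it and carries it. Promoters of 300 bases, 250 before to 50 after the transcription start, were available from RefSeq (GRCm38.p6) for 9 of the 10 genes. CACGTG, which reads the same on both strands, lay in a promoter of 5 of these 9 genes, against 7.15% of 32851 promoters and 12.0% of the 10138 genes tested in soleus that had an entry. Below, 60 bases around each match are printed 5′ to 3′ on the strand of the gene with the motif in capitals. The match in Max spans the start (positions -3 to 3), and those in Mlx, Mlxipl, Mnt and Mxd4 begin 40, 98, 123 and 219 bases before it. Mlxipl has 2 promoter entries and only the upstream one holds the motif.
Max (chr12:76962246-76962305, minus strand): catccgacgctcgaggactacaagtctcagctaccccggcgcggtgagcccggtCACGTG
Mlx (chr11:101087223-101087282, plus strand): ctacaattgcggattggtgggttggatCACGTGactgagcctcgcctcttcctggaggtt
Mlxipl (chr5:135089765-135089824, plus strand): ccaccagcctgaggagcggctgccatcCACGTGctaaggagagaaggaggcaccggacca
Mnt (chr11:74830774-74830833, plus strand): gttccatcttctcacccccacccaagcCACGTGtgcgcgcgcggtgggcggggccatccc
Mxd4 (chr5:34187897-34187956, minus strand): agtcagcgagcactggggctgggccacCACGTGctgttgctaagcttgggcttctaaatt
The promoters of Mga, Mxd1, Mxi1 and Mlxip held no CACGTG. Mga held the related motif CACGCG, read on the other strand as CGCGTG, 21 bases before the start; 9.27% of all promoters and 20.1% of the genes tested in soleus hold this motif on either strand.
Mga (chr2:119897171-119897230, plus strand): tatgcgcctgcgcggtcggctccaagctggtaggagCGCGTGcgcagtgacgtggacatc
A match describes the letters of this window and is not evidence of binding.

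Values are normalised read counts, that is, estimated reads divided by 1 size factor per library. Each log2 change is the Myc-labelled mean less the control mean on the log2(value + 1) scale. Estimated depth was 11.1 to 14.9 M reads in soleus and 14.2 to 18.4 M in quadriceps. The tissue labels were checked on fibre markers. The summed slow-fibre level was 503290 to 642770 in Myc-labelled soleus and 533410 to 620150 in control soleus, but in quadriceps it was 1985 and 3473 in Myc-labelled libraries against 26292 and 190660 in controls. Both quadriceps controls were thus above both Myc-labelled libraries, and control library 2 was the higher. The slow-fibre markers had a median log2 change of -5.37 in quadriceps (0 of 9 called by limma or limma-voom, 6 lower at an unadjusted p under 0.05). In 1 fit over all 11 libraries 4 of the 9 fell, and 1 fell with the replicate number as a block. The median was -6.81 without control library 1 and -3.92 without control library 2. The summed level of 10 fast-fibre markers was 426340, 571060, 685600 and 469100 in Myc-labelled soleus libraries 1 to 4 and 652340 to 687120 in control soleus, where 1 of the 10 fell, 3 were lower at an unadjusted p under 0.05 and the median log2 change was -0.41. No fast-fibre marker was called without control library 2, and 4 were without Myc-labelled library 3. In soleus the summed level of 8 tendon markers was 7289 and 6467 in Myc-labelled libraries 1 and 2, 2156 and 3462 in libraries 3 and 4, and 7415 to 9024 in controls, and that of 8 fibroblast markers was 17909, 18283, 6404 and 9144 in Myc-labelled libraries 1 to 4 and 14694 to 21546 in controls. In soleus 0 of 8 tendon markers were called by limma, with 4 lower at an unadjusted p under 0.05 and a median log2 change of -1.08. Without robust moderation 2 fell, and 1 fell without Myc-labelled library 1 or without library 3. Of 8 fibroblast markers 1 fell (median -0.44), a call lost when any 1 soleus library was left out. Without Myc-labelled libraries 3 and 4 the fibroblast median was 0.046, while 2 tendon markers fell and the tendon median was -0.36. In quadriceps the summed tendon level was 273 and 3493 in Myc-labelled libraries 1 and 2, against 3902 and 1372 in control libraries 1 and 2. The fibroblast level there was 10160 and 19497 in Myc-labelled libraries, against 13803 and 17234 in controls. Limma called 0 markers of these 2 lists in quadriceps, with medians of -1.51 for tendon and -0.13 for fibroblast. Without Myc-labelled quadriceps library 1 the tendon median was 0.58, and without library 2 it was -3.44. The part of these marker differences, fibre markers included, in the results below was not tested, beyond the values given with libraries left out. In bulk muscle, fewer cells of a type and less RNA per cell cannot be told apart.

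The Myc row did not mark the Myc-labelled libraries in either muscle. In soleus it held 26.3, 31.0, 28.8 and 27.7 in Myc-labelled libraries 1 to 4, against 30.0, 54.3 and 28.2 in control libraries 1 to 3. The 4 Myc-labelled values lie within a few counts of each other and of control libraries 1 and 3, and only control library 2 is high. These values are 25 to 37 estimated reads per Myc-labelled library and 34, 56 and 24 reads in the controls. The 56 reads of control library 2 have a 95% exact Poisson interval of 42.3 to 72.7 reads, which covers counting error only. As normalised counts, which allow for depth, this interval is 41.0 to 70.5. The highest upper bound among the other soleus libraries was 42.7, in Myc-labelled library 2, so the intervals overlap narrowly. The log2 change was -0.33 (95% interval -1.18 to 0.52; limma, adjusted p = 0.69), so the interval reaches up to 1.44-fold higher and down to 0.44-fold. Without control library 2 the log2 change was -0.03 (limma, adjusted p = 0.98).

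In quadriceps Myc held 86.4 and 33.6 in Myc-labelled libraries 1 and 2, against 114 and 55.7 in control libraries 1 and 2. The groups overlap, and in each the library numbered 1 is at least as high as any library numbered 2. The log2 change was -0.55 (95% interval -1.90 to 0.80; limma, adjusted p = 0.93), with an upper bound of 1.74-fold. It was 0.12 without Myc-labelled library 2 and -1.22 without Myc-labelled library 1. Whether transcripts of the inducible system would be counted in this row was not tested, since the labels do not give its sequence.

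**Figure D1:**
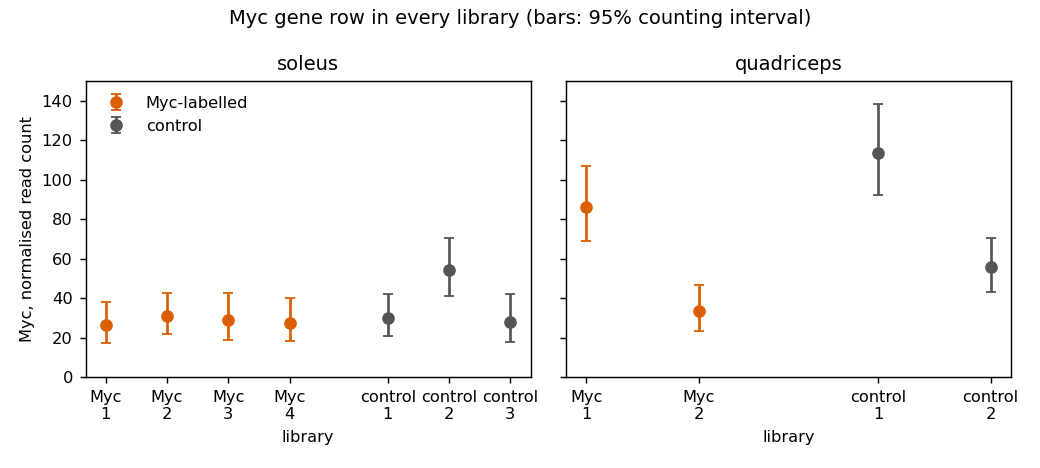
Normalised read count of Myc in each soleus (left) and quadriceps (right) library, Myc-labelled in orange and control in grey, with bars for the 95% exact Poisson interval of the estimated reads. The 4 Myc-labelled soleus libraries sit between 26.3 and 31.0, at the level of control libraries 1 and 3, and quadriceps values run from 33.6 to 114 with the groups overlapping.

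The other Myc paralogs were near the limit of these tables. Mycl, which acts in the same dimers, held 6.93 to 24.2 in Myc-labelled soleus against 8.84 to 49.3 in control soleus, and 7.20 and 10.9 in Myc-labelled quadriceps against 8.12 and 21.6 in control quadriceps. Mycn held 2.30 to 24.3 in Myc-labelled soleus and 11.7 to 13.3 in control soleus and had no row in quadriceps, and Mxd3, a further Max-binding repressor, had no row in either table. None of these rows was called (limma, adjusted p = 0.62 for Mycl and 0.59 for Mycn in soleus, 0.95 for Mycl in quadriceps).

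Of the 10 network genes 1 was called in soleus at an adjusted p under 0.05, where 9.29% of 12745 tested genes were called, so the share was near the background. That 1 gene was higher, as were 7.06% of tested genes, and 0 were lower, beside 2.23%. In quadriceps 0 of the 10 were called, where 0.00815% of 12270 genes were. Limma-voom also called 1 of the 10 in soleus and 0 in quadriceps. At an unadjusted p under 0.05 there were 4 of 10 in soleus, beside 21.7% of all genes, with Mga and Mnt higher (12.9% of all genes) and Mxd1 and Mlxipl lower (8.77%). In quadriceps there was 1, Mga, beside 6.21% of all genes (3.97% higher and 2.24% lower). The median log2 change of the 10 genes was 0.004 in soleus and 0.02 in quadriceps, beside -0.03 over all genes in both muscles.

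**Figure D2:**
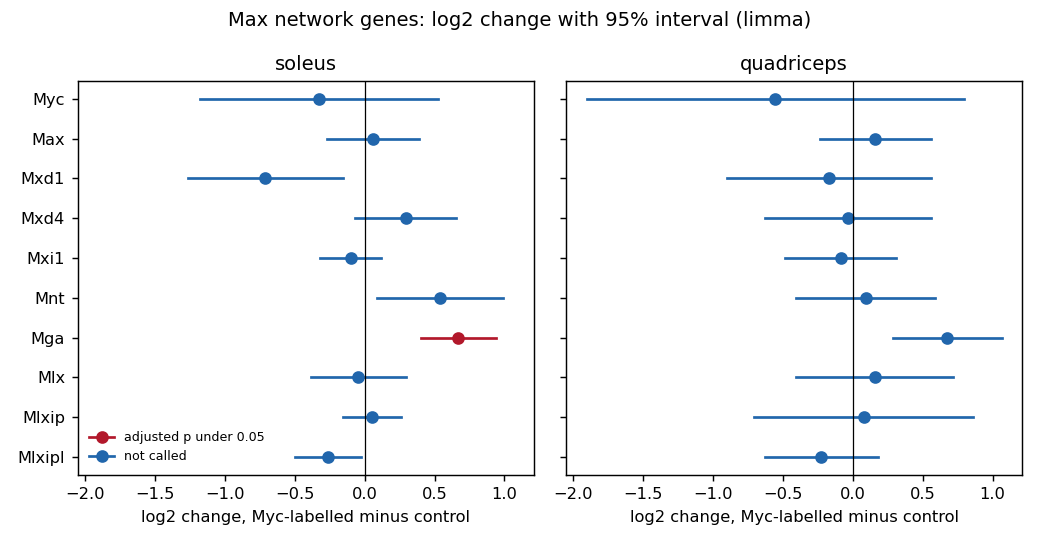
Log2 change (Myc-labelled minus control) of the 10 network genes with its 95% interval from limma, in soleus (left) and quadriceps (right), red where the adjusted p is under 0.05. Mga in soleus is the gene called, at 0.67, and its quadriceps point lies at 0.68 with a wider interval.

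Mga was the member that rose. It encodes a very large protein with both a T-box and a Max-binding domain, and belongs to the Polycomb complex PRC1.6, which keeps germ-line genes silent. In soleus it held 861, 822, 742 and 639 in Myc-labelled libraries 1 to 4, against 510, 493 and 436 in control libraries 1 to 3. The lowest Myc-labelled library is above the highest control. Its log2 change was 0.67 (SE 0.13, 95% interval 0.40 to 0.94; limma, adjusted p = 0.0023), a 1.59-fold difference, and it ranked 392 by p among all genes. The 1616 genes with no overlap and a higher level in Myc-labelled soleus make up 12.7% of those tested, and Mga was the only member among them. Over 18 alternative settings the log2 change was 0.60 to 0.81 and the adjusted p 0.00074 to 0.011. Without Myc-labelled libraries 3 and 4, those low in tendon and fibroblast markers, it was 0.81 (limma, adjusted p = 0.0048).

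In quadriceps Mga held 1520 and 1419 in Myc-labelled libraries 1 and 2, against 992 and 851 in control libraries 1 and 2, again without overlap, as for 35.2% of quadriceps genes in either direction. In the direction of higher in Myc-labelled libraries 18.3% of quadriceps genes showed no overlap, Max among them, and 16.9% in the other direction, Mlxipl among them. The log2 change was 0.68 (SE 0.17, 95% interval 0.29 to 1.07), a 1.598-fold difference that ranked 115 by p. It did not pass over all genes (limma, adjusted p = 0.44). Without control library 2, the library highest in slow-fibre markers, the log2 change was 0.57. Control library 1 was also above both Myc-labelled libraries in those markers. The change in soleus minus that in quadriceps was -0.01 (95% interval -0.44 to 0.42; limma, adjusted p = 0.999), with an interval that spans 0.

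Among the other repressors, Mxd1, which recruits Sin3 corepressors and is known from cells leaving the cycle, had the lowest log2 change in soleus. It held 64.2, 51.1, 63.3 and 58.4 in Myc-labelled libraries 1 to 4, against 91.0, 109 and 92.7 in control libraries 1 to 3. The groups do not overlap, as for 8.35% of tested genes in this direction. The log2 change was -0.71 (95% interval -1.26 to -0.15), which did not pass over all genes (limma, adjusted p = 0.11; 0.079 to 0.33 over 18 alternative settings). In quadriceps it held 90.5 and 67.1 in Myc-labelled libraries against 91.7 and 83.9 in controls, a log2 change of -0.17 (95% interval -0.90 to 0.56). The change in soleus minus that in quadriceps was -0.54 (95% interval -1.36 to 0.28; limma, adjusted p = 0.999).

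Mnt, the most widely expressed Max-binding repressor in many tissues, held 433, 429, 327 and 285 in Myc-labelled soleus libraries 1 to 4, against 317, 278 and 176 in control libraries 1 to 3. Libraries 1, 2 and 3 are above every control, library 3 narrowly, and library 4 is within their range. The log2 change was 0.54 (95% interval 0.09 to 0.99; limma, adjusted p = 0.14). Without Myc-labelled libraries 3 and 4 it was 0.785, also not called. In quadriceps Mnt held 256 and 343 in Myc-labelled libraries and 297 and 260 in controls, a log2 change of 0.09 (95% interval -0.41 to 0.59), and the change in soleus minus that in quadriceps was 0.44 (95% interval -0.30 to 1.19; limma, adjusted p = 0.999).

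Mxi1 and Mxd4, repressors of the same family, showed smaller differences. Mxi1, the more abundant of the pair, held 1215 to 1480 in Myc-labelled soleus and 1380 to 1524 in control soleus, a log2 change of -0.10 (95% interval -0.32 to 0.12). Mxd4 held 226, 228, 311 and 272 in Myc-labelled soleus libraries 1 to 4 and 189 to 227 in control soleus. Its log2 change was 0.29 (95% interval -0.07 to 0.66), and 0.115 without Myc-labelled libraries 3 and 4. In quadriceps their log2 changes were -0.09 and -0.03, with Mxd4 at 150 and 226 in Myc-labelled libraries and 190 and 187 in controls. None of these was called.

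Max, the shared partner, held 428, 594, 689 and 479 in Myc-labelled soleus libraries 1 to 4, against 491, 479 and 581 in control libraries 1 to 3, and the Myc-labelled values span the controls on both sides. Its log2 change was 0.06 (95% interval -0.27 to 0.39; limma, adjusted p = 0.86). In quadriceps it held 387 and 395 in Myc-labelled libraries against 367 and 332 in controls, with no overlap but a log2 change of 0.16 (95% interval -0.24 to 0.56; limma, adjusted p = 0.94).

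**Figure D3:**
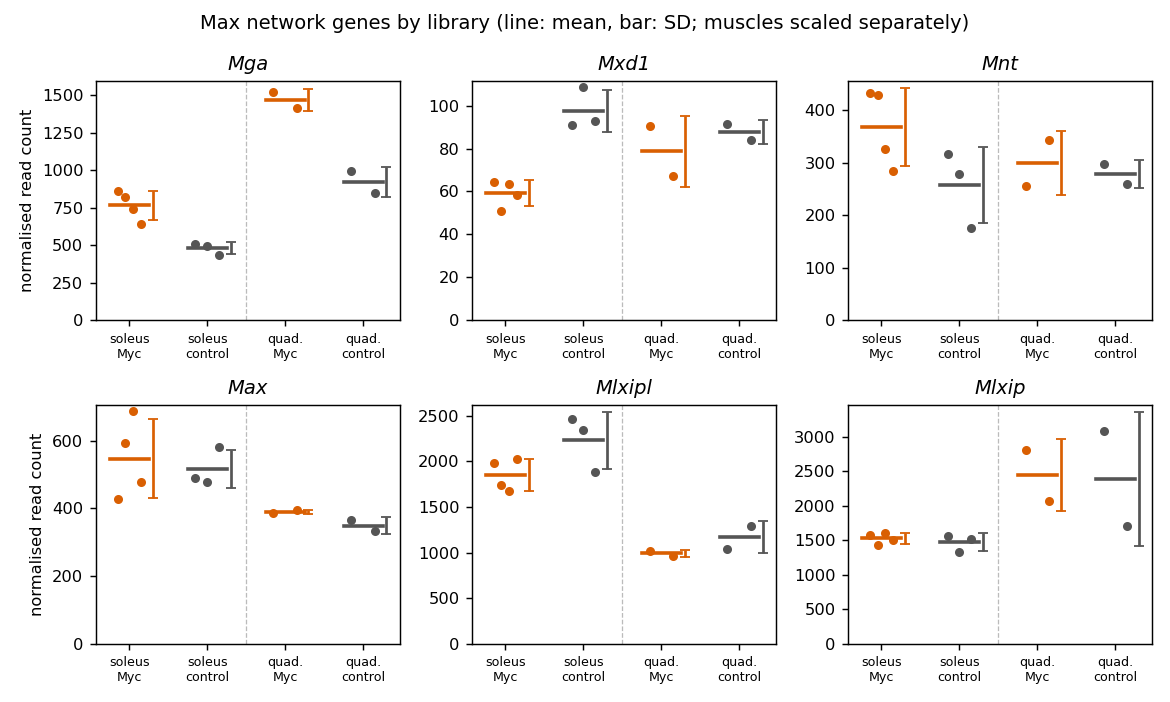
Normalised read count per library for Mga, Mxd1, Mnt, Max, Mlxipl and Mlxip, Myc-labelled in orange left of control in grey for each muscle, with the mean as a line and the SD as a bar; the muscles were scaled separately. Mga is above control in every Myc-labelled library of both muscles, and Mxd1 is below control in every Myc-labelled library of soleus.

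The Mlx arm was close to control. Mlx held 199 to 244 in Myc-labelled soleus and 220 to 234 in control soleus (log2 change -0.05, 95% interval -0.38 to 0.29), and Mlxip 1430 to 1600 in Myc-labelled soleus and 1331 to 1568 in control soleus (log2 change 0.05, 95% interval -0.15 to 0.26). Mlxipl held 1984, 1739, 1672 and 2025 in Myc-labelled soleus libraries 1 to 4, against 2471, 2346 and 1879 in control libraries 1 to 3, where control library 3 lies within the Myc-labelled range. Its log2 change was -0.26 (95% interval -0.50 to -0.02; limma, adjusted p = 0.18), and it was called only without control library 3 (-0.38; limma, adjusted p = 0.046; 0.046 to 0.47 over 18 alternative settings).

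In quadriceps Mlxip varied more within groups than between them, with 2809 and 2073 in Myc-labelled libraries 1 and 2 and 3078 and 1701 in control libraries 1 and 2 (log2 change 0.08, 95% interval -0.70 to 0.86). Mlxipl held 1021 and 967 in Myc-labelled libraries and 1044 and 1292 in controls (log2 change -0.23, 95% interval -0.63 to 0.18), and Mlx 225 and 182 in Myc-labelled libraries and 158 and 209 in controls (log2 change 0.16, 95% interval -0.41 to 0.72).

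The change in soleus minus that in quadriceps was called for 0 of the 10 genes by limma and by limma-voom, where 0% of 11971 genes were called. At an unadjusted p under 0.05 there were also 0, with a background of 3.18%. The 10 differences ran from -0.54 for Mxd1 to 0.44 for Mnt, and the widest interval was that of Myc (-1.18 to 1.63).

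Levels between muscles were set side by side as reads per M estimated reads, because the tables were scaled separately, and were not tested. In 4 genes all soleus libraries were above all quadriceps libraries, with 34.9 to 51.4 against 21.8 to 27.5 for Max, 99.3 to 117 against 63.2 to 83.2 for Mxi1, 16.1 to 19.98 against 9.57 to 14 for Mlx and 125 to 188 against 63.3 to 84.6 for Mlxipl. The other 6 genes overlapped between muscles. The share of all genes that separates the muscles in this way was not counted, so these 4 genes have no background beside them. For Myc the groups ran from low to high as Myc-labelled soleus (2.25 ± 0.19, SD, n = 4), control soleus (2.87 ± 1.11, n = 3), Myc-labelled quadriceps (3.85 ± 2.15, n = 2) and control quadriceps (5.27 ± 2.30, n = 2), and each group overlapped the next. For Mga the order from high to low was Myc-labelled quadriceps (96.6 ± 3.06), Myc-labelled soleus (60.7 ± 9.62), control quadriceps (57.9 ± 3.15) and control soleus (36.6 ± 2.83), where only the middle pair overlapped. For Mxd1 Myc-labelled soleus (4.67 ± 0.44) was lowest and control soleus (7.45 ± 0.74) highest, and only control soleus did not overlap its neighbour.

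Between genes, levels were compared as normalised read counts per kilobase of exon (GENCODE M21 basic set). In soleus the highest was Mlxipl, with 512 ± 48.5 in Myc-labelled libraries and 616 ± 86.0 in controls, followed by Max with 280 ± 59.7 in Myc-labelled libraries and 264 ± 28.4 in controls (SD, n = 4 and 3). In quadriceps Mlxip (302 ± 64.3 in Myc-labelled libraries, 296 ± 121 in controls) and Mlxipl (274 ± 10.6 in Myc-labelled libraries, 323 ± 48.4 in controls; n = 2 each) were on top. Myc was lowest in soleus, with 11.6 ± 0.81 in Myc-labelled libraries and 15.3 ± 5.96 in controls, and next to lowest in quadriceps, with 24.5 ± 15.3 in Myc-labelled libraries and 34.6 ± 16.8 in controls. Among the Max-binding repressors Mxi1 was the highest per kilobase in both muscles (201 ± 19.1 in Myc-labelled and 215 ± 12.0 in control soleus) and Mxd1 the lowest (12.7 ± 1.29 in Myc-labelled and 20.9 ± 2.08 in control soleus).

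**Figure D4:**
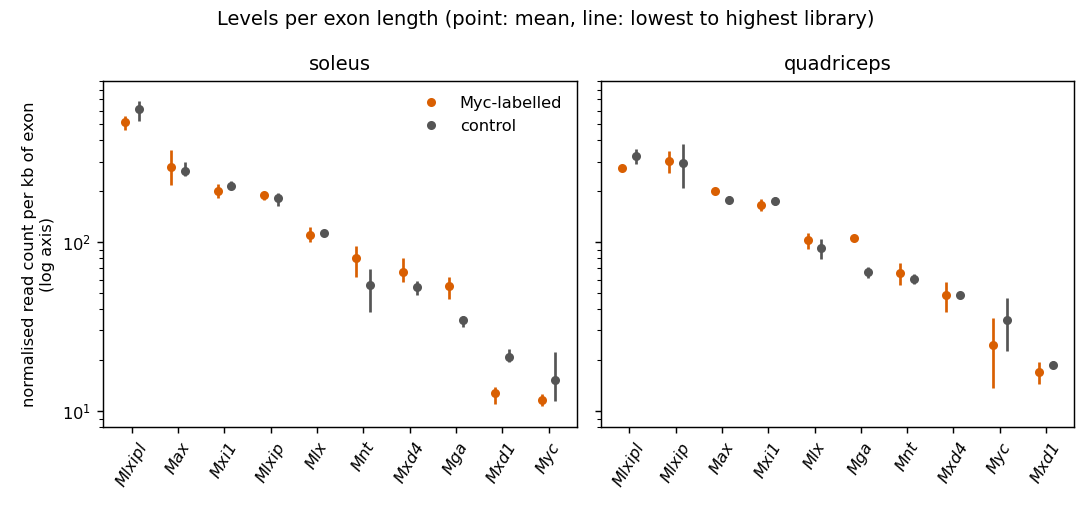
Normalised read count per kilobase of exon on a log axis for the 10 genes, ordered by the control mean in soleus (left) and quadriceps (right), with points for group means and lines from the lowest to the highest library. Mlxipl is highest in control libraries of both muscles, and Myc and Mxd1 are the lowest pair.

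Genes that work with the network were read from lists chosen with earlier results of these data known. They are described by counts and medians beside the all-gene median of -0.03, and the counts are not independent support. Of 20 genes listed as raised by Myc in many cell types 15 rose and 0 fell in soleus (14 to 16 over the alternatives), with a median log2 change of 1.24. Over all tested genes 7.06% rose and 2.23% fell. The examples with the smallest p were the nucleolar GTPase Gnl3 (2.37), the pyrimidine enzyme Cad (2.21), the nucleolar protein Ncl (1.4997) and Dkc1 (2.09), a pseudouridine synthase. In quadriceps 0 of the 20 were called by limma or limma-voom, and the median was 0.74. At an unadjusted p under 0.05, 13 were higher, beside 3.97% of all genes. The 1 fit over all 11 libraries called 7. Of 12 genes listed as lowered by Myc 2 fell in soleus, beside 2.23% of all tested genes, with a median of -0.30. In quadriceps 0 were called by limma or limma-voom, with 1 lower at an unadjusted p under 0.05, beside 2.24% of all genes. The 2 that fell in soleus were the cell-cycle inhibitor Cdkn1b and Gadd45a (-1.17, limma adjusted p = 0.022). Cdkn1b held 449 to 565 in Myc-labelled soleus against 719 to 768 in controls (log2 change -0.54, limma adjusted p = 0.0069). Cdkn1b lost its call without Myc-labelled libraries 3 and 4 (limma, adjusted p = 0.083), and Gadd45a lost its call without control library 3 (0.11), without Myc-labelled library 2 (0.060) or 4 (0.064) and in 1 fit over all 11 libraries (0.054).

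Several partners of Mga in PRC1.6 rose with it in soleus. Of 13 listed genes 5 rose and 0 fell, beside 7.06% of all tested genes that rose, with a median log2 change of 0.11. Wdr5 is also on the list of chromatin cofactors and Hdac2 on that of corepressors. Pcgf6, the ring-finger subunit that defines this complex, held 80.8, 109, 97.9 and 93.0 in Myc-labelled libraries 1 to 4, against 23.0, 41.7 and 36.4 in control libraries 1 to 3 (log2 change 1.504, SE 0.31; limma, adjusted p = 0.0042). The lowest Myc-labelled value of Pcgf6 is well above the highest control. Tfdp1, the E2F dimer partner, rose by 0.56 (limma, adjusted p = 0.0031), the WD-repeat protein Wdr5 by 0.58 (0.0054), the methyl-lysine reader L3mbtl2 by 0.72 (0.015) and the deacetylase Hdac2 by 0.39 (0.031). Of these 5, only Tfdp1 was still called without Myc-labelled libraries 3 and 4, where Pcgf6 had an adjusted p of 0.051, Wdr5 0.085, L3mbtl2 0.142 and Hdac2 0.145 (limma). Without control library 2 there were 3. In quadriceps Pcgf6 held 174 and 114 in Myc-labelled libraries against 89.4 and 83.9 in controls (log2 change 0.70, limma adjusted p = 0.80). There 0 of the 13 were called by limma or limma-voom, with 1 higher at an unadjusted p under 0.05, beside 3.97% of all genes.

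Of 20 chromatin cofactors of Myc 6 rose and 0 fell in soleus, with a median of 0.23. Over all tested genes 7.06% rose and 2.23% fell. Kat2a, a histone acetyltransferase, held 552 to 833 in Myc-labelled soleus against 287 to 398 in controls (log2 change 0.95, SE 0.16; limma, adjusted p = 0.00090) and 541 and 481 in Myc-labelled quadriceps against 237 and 250 in controls (1.06; limma, adjusted p = 0.23). The paired ATPases Ruvbl1 and Ruvbl2 rose by 0.995 and 0.94 and Actl6a, an actin-like subunit of the same complexes, by 0.77 in soleus. Kat2a, Ruvbl1, Ruvbl2 and Actl6a were called in all 18 alternative settings. The other 2 that rose were Wdr5, called in 17 of 18, and the elongation factor Supt5 (log2 change 0.39; limma, adjusted p = 0.047), named after its values were seen and called in 8 of 18. The count ran from 4 to 7 over the alternatives and was 4 without Myc-labelled libraries 3 and 4. Supt5 was not called by limma-voom (0.052), nor without Myc-labelled library 3 (0.115) or 4 (0.134) or control library 1 (0.0707), 2 (0.118) or 3 (0.148). In quadriceps 0 of the 20 were called by limma or limma-voom. At an unadjusted p under 0.05, 4 were higher and 1 lower, beside 3.97% and 2.24% of all genes.

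The remaining lists had few calls, with shares near the 7.06% of all tested genes that rose. Of 16 genes of Myc protein turnover tested, 1 rose, the deubiquitinase Usp36, at 738 to 834 in Myc-labelled soleus against 430 to 481 in controls (log2 change 0.81, SE 0.11; limma, adjusted p = 0.00012), and the list median was 0.05. Scaling to equal library totals gave 2, as did leaving out Myc-labelled library 2. Of 15 Sin3 and deacetylase corepressors, which Mxd proteins recruit, 1 rose, Hdac2, and the median was -0.11; Hdac2 lost its call without Myc-labelled library 1 (limma, adjusted p = 0.075) or 4 (0.097) or control library 2 (0.11) or 3 (0.12). Of 14 targets of MondoA and ChREBP tested, 1 rose, the acetyl-CoA carboxylase Acaca (log2 change 0.50; limma, adjusted p = 0.028; 0.017 to 0.13 over 18 alternative settings), and the median was -0.27. It was not called without Myc-labelled library 2 (0.078), 3 (0.064) or 4 (0.054) or control library 1 (0.085) or 3 (0.11). In quadriceps 0 genes of these 3 lists were called by limma or limma-voom. At an unadjusted p under 0.05, 1 of turnover was higher and 2 of the corepressors were lower, beside 3.97% and 2.24% of all genes.

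Of 10 regulators of Myc transcription tested in soleus 2 rose, beside 7.06% of all tested genes, with a median of 0.15. Cnbp, a nucleic-acid-binding protein known from the Myc promoter, rose by 0.55 (limma, adjusted p = 0.00057). Pvt1, a long non-coding RNA gene that neighbours Myc, held 69.1, 52.7, 40.3 and 28.7 in Myc-labelled soleus libraries 1 to 4, against 23.0, 13.6 and 11.7 in control libraries 1 to 3. Every Myc-labelled library is above every control, though the top control is close to library 4. Its log2 change was 1.49 (SE 0.45, limma adjusted p = 0.047). The call was lost in 8 of 17 alternative settings, among them limma-voom (0.10) and the fits without Myc-labelled library 1 (0.15), 2 (0.11) or 3 (0.077) or without control library 2 (0.13) or 3 (0.12). In quadriceps Pvt1 held 125 and 49.3 in Myc-labelled libraries against 68.5 and 44.1 in controls (log2 change 0.51; limma, adjusted p = 0.93).

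**Figure D5:**
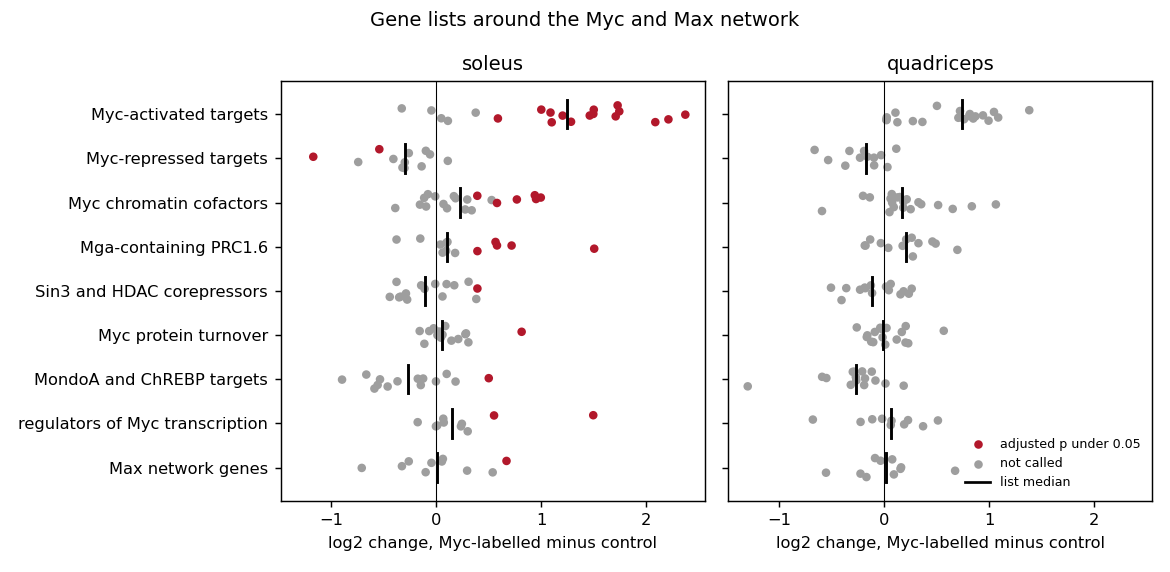
Log2 change (Myc-labelled minus control) of each tested gene of 9 lists in soleus (left) and quadriceps (right), red where the adjusted p is under 0.05, with a black bar at the list median. The list of genes known to be raised by Myc stands furthest to the right in both muscles, with medians of 1.24 in soleus and 0.74 in quadriceps, while the Max network genes have medians near 0 in both.

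The E-box was also counted over all tested soleus genes with a promoter entry, as a description. It lay in a promoter of 146 of 743 genes that rose (19.7%), 19 of 230 that fell (8.26%) and 1048 of 9165 that were not called (11.4%). CACGCG, on either strand, was held by 28.8% of the genes that rose, 12.2% of those that fell and 19.5% of those not called. None of the 5 network genes with CACGTG was called, and Mga, the member that rose, held CACGCG.

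Among the genes whose pattern was most like that of Myc were Crot, a peroxisomal carnitine acyltransferase (Pearson's r = 0.93), Wdr44 (0.91), the adiponectin receptor Adipor2 (0.90) and Rnf139 (0.90), over 11 libraries centred within each muscle and among 9784 genes. In soleus alone r was 0.895 for Crot, 0.74 for Wdr44, 0.69 for Adipor2 and 0.69 for Rnf139. In quadriceps alone, with only 4 libraries, it was 0.98 to 0.99. With 24 to 98 estimated reads of Myc per library these values carry counting error, and the libraries share their groups. For Mga they were Orc4, an origin recognition subunit (0.97), Polr3e, a subunit of RNA polymerase III (0.97), the translation release factor Gspt1 (0.96), the poly(A)-binding protein Pabpc1 (0.96) and Usp36 (0.95); 5% of genes had an r above 0.82 with Mga, which follows the split into Myc-labelled and control libraries. Among the 10 members themselves the highest r was that of Mnt with Mga (0.71) and the lowest that of Max with Mlxipl (-0.73).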

How the data were processed

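RNA-seq of 11 mouse muscle libraries was used. Each muscle has 1 table, deposited by the authors as a normalised signal for every gene. Among tools, Partek, DESeq2 and STAR 2.7.8a are listed in the submitters' processing notes, together with the builds mm10 and mm39 and without a role or order. Judged from the values, estimated reads had been divided by 1 factor per library, since 91.0% to 93.5% of values under 300 were whole numbers of reads (tolerance 0.02). They are not counts, so the planned count test was not used. Each table was fitted alone with limma 3.58.1 (R 4.3.3, statmod 1.5.0) on log2(value + 1), with trend and robust moderation, over genes with at least 10 in 3 soleus or 2 quadriceps libraries, and p-values were adjusted by Benjamini-Hochberg over all genes; the difference between muscles used 1 fit over 11 libraries. In that fit all libraries were treated as independent, though the labels do not say whether soleus and quadriceps libraries share animals. Deviations of same-numbered soleus and quadriceps libraries correlated over genes at -0.030 and 0.097 in Myc-labelled and 0.10 and 0.16 in control libraries. Unlike-numbered ones reached 0.12. The scripts were tested on simulated data. Libraries were grouped by title, and replicates differed by more than sampling noise. Symbols in the tables were used as given, and promoters were matched by symbol.

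Every network gene is described. From each list other than the markers, up to 4 called genes with the smallest p in soleus are named (Hdac2 appears under both of its lists, and Supt5 was added after its values were seen), as are the 5 genes most like Myc, of which 1 is not reported here, and the 5 most like Mga. Members and lists were chosen with earlier results of these data known. Alternatives were scaling to library totals or by trimmed means of M values, pseudocounts of 0.5 and 5, no filter or at least 50, no robust moderation, limma-voom, 1 fit over 11 libraries, the replicate number as a block and each library left out; leaving out Myc-labelled soleus libraries 3 and 4 was chosen after seeing the data.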

Additional observations from a re-analysis of the deposited data

How the results depend on the processing

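Mga kept its call in soleus in all 18 alternatives, and no member was called in quadriceps or in the difference between muscles in any. The soleus count of called members was 2 with the replicate block, which added Mnt (log2 change 0.65; limma, adjusted p = 0.017), and 1 to 2 when each library was left out, where leaving out control library 3 added Mlxipl. No soleus control carries number 4, so the block takes up Myc-labelled soleus library 4. The median log2 change of the members was 0.0055 both with the block and without that library. Mnt was not called with any 1 library left out (lowest limma adjusted p = 0.075). The labels do not say that a shared number marks a pair. Deviations of same-numbered libraries correlated over genes at 0.0010, 0.076 and 0.14 in soleus, not all over 0.1. Unlike-numbered soleus libraries ran from -0.20 to 0.21. In quadriceps the 2 libraries of a group deviate as mirror images, so its 2 pairs give a single value, 0.14. The numbers were therefore not taken to pair the libraries. The block changed no other call of a member; it called 1216 genes in soleus against 1184, and 4 in quadriceps against 1. Over all genes, soleus had 776 calls without control library 2 and 630 without Myc-labelled libraries 3 and 4, and quadriceps had 94 in 1 fit over all 11 libraries, 3 to 137 when each library was left out and 0 under scaling to library totals. The difference between muscles had 0 calls, 4 with no robust moderation and 0 to 17 when each library was left out.

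Some changes turned sign when single libraries were left out. In soleus the log2 change of Max ran from -0.055 to 0.17 (-0.030 without Myc-labelled libraries 3 and 4), that of Mlx from -0.098 to 0.0010 and that of Mlxip from -0.018 to 0.0999. In quadriceps Myc ran from -1.22 to 0.12, Mxd1 from -0.38 to 0.044, Mxd4 from -0.33 to 0.26 (0.028 under scaling to library totals), Mxi1 from -0.20 to 0.030, Mnt from -0.12 to 0.30, Mlx from -0.045 to 0.36 and Mlxip from -0.35 to 0.50. In the difference between muscles Mga ran from -0.12 to 0.10 (0.077 with the replicate block, 0.14 without Myc-labelled libraries 3 and 4) and Myc from -0.44 to 0.90. The cause was not tested. Myc in soleus could not be fitted with a minimum of 50, since fewer than 3 libraries reach it. With a quadriceps library left out, the lone sample of its group is assumed to vary like the other group. The 24 to 98 reads of Myc per library limit what can be said of it.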
